A study of Mus musculus with 2 samples.

Results

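The semaphorin, plexin, neuropilin, Eph receptor and ephrin genes were followed through a map of chromatin boundaries in mature olfactory sensory neurons. Members were taken by gene name from the protein-coding genes of GENCODE mouse release 21 on GRCm38, which gave 53 of 21755 coding genes. They comprised 20 semaphorins, 9 plexins, 2 neuropilins, 14 Eph receptors and 8 ephrins. The map came from in situ Hi-C, in which crosslinked chromatin is cut, neighbouring DNA ends are ligated and the junctions are sequenced. FACS isolated the GFP-positive neurons of adult OMP-GFP mice (strain 129P2/OlaHsd, mixed sex), in which olfactory marker protein expression is reported by GFP. The labels list no treatment or modification and do not say how many animals were pooled. There was 1 group with 2 biological replicates, of 3000000 and 1500000 cells, fixed in 1% formaldehyde and cut with DpnII.

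The list used here holds 8058 boundaries of 5 kb each, called by the authors on the pooled contact map, of which 4092 were classed Strong and 3966 Weak. A boundary is a place that contacts cross less often than their surroundings, so it borders contact domains. Each has a strength, the authors' score with no stated scale, from 0.2 to 4.32 with a median of 0.509, and Strong boundaries are those above 0.5. Because both replicates were pooled, no value below has a spread between replicates and no difference was tested. Counts over the guidance genes stand beside the same count over all coding genes, as a description. Contact depth is unknown here, and without expression values the sorted cells could not be checked against marker genes.

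Semaphorins are secreted or membrane-bound guidance cues that mostly repel growing axons. Plexins are their signalling receptors, and neuropilins are the co-receptors that bind the secreted class 3 semaphorins beside A-class plexins. Ephrins are membrane-bound ligands of the Eph receptor tyrosine kinases, and both sides of that pair can signal. In olfactory sensory neurons the neuropilins and plexins are known for ordering axons on their way to the olfactory bulb. EphA receptors and A ephrins are known for local sorting of these axons into glomeruli.

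Most guidance genes did not start beside a boundary. The transcription start site (TSS, the 5′ end of the gene record) lay within 20 kb of a boundary at 11 of 53 genes (20.8%), against 21.2% of all coding genes. The boundary was Strong at 9 (17%), against 13.7%. These shares lie near the background, so closeness to a boundary at 20 kb is no result about these genes. With other limits the share was 18.9% against 12.8% at 10 kb, and 50.9% against 44.9% at 50 kb. Counted from any coding transcript start, it was 24.5% against 23.4% at 20 kb. These differences were not tested. The median distance to the nearest boundary was 50 kb (quartiles 25 and 100 kb), against 60 kb (25 and 105 kb) for all coding genes. The nearest boundary was Strong at 36 of 53 genes (67.9%), against 64.3%.

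The 11 genes came from every family. They were Sema5a and Sema6a among the semaphorins, Plxna1, Plxna4 and Plxnd1 among the plexins, the neuropilin Nrp2, the Eph receptors Epha4, Epha10 and Ephb1, and the ephrins Efna2 and Efna5. Just outside the limit, at 25 kb, stood Epha1, Ephb4 and Efnb2, while Sema5a stood on it at 20 kb. A 5 kb bin that held both a boundary and the TSS was found only for Efna5, 1 gene of 53 (1.89%), against 3.16% of coding genes.

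**Figure D1:**
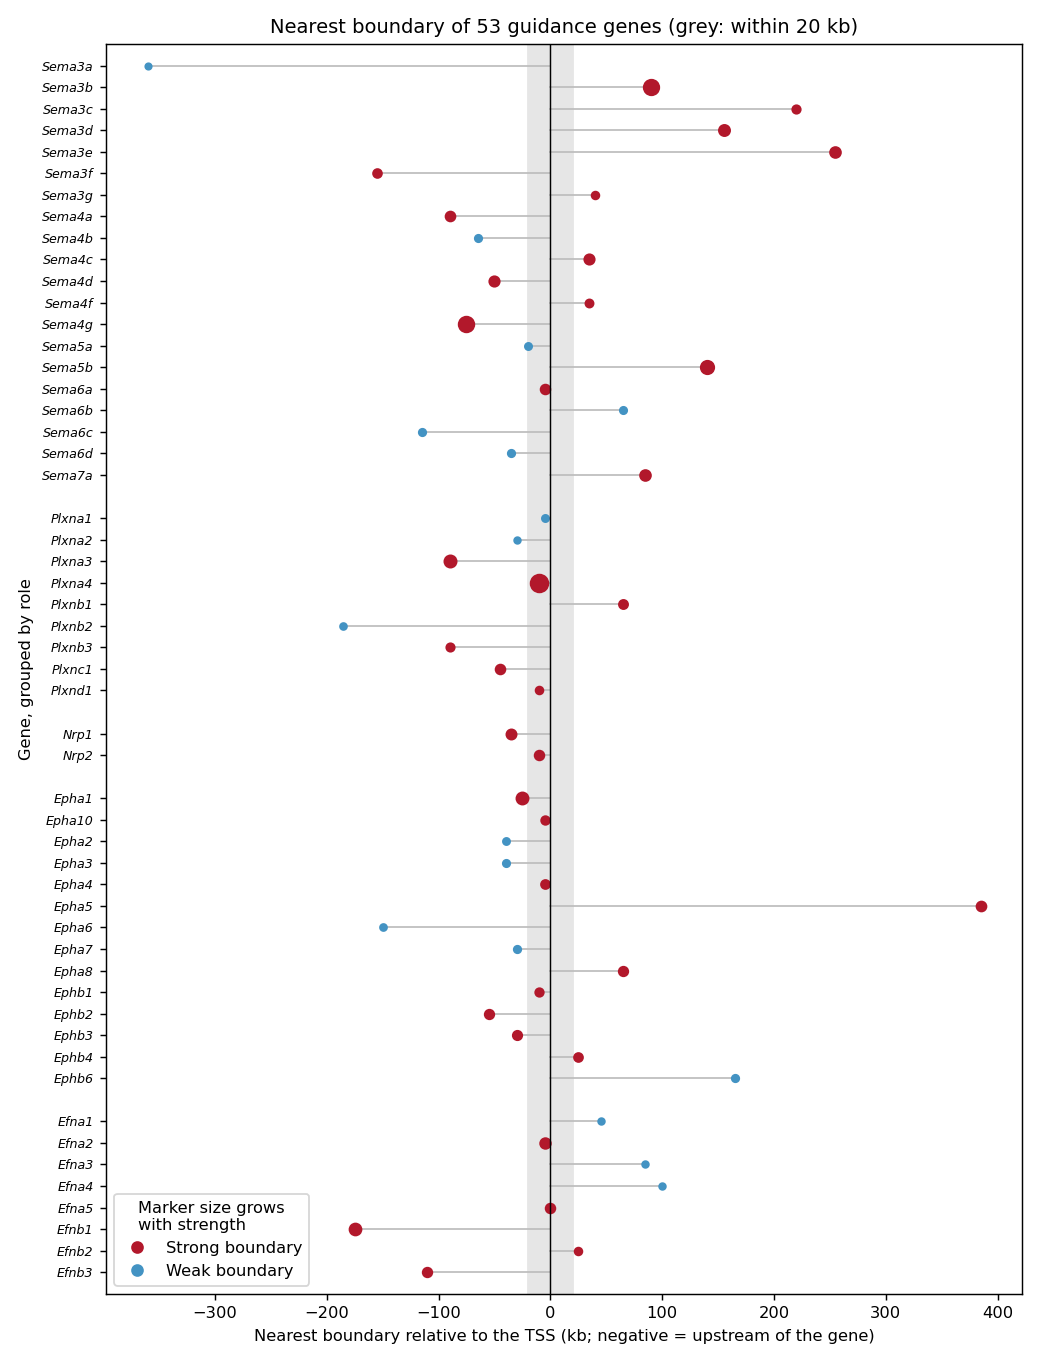
Distance in kb from each gene's TSS to its nearest boundary, with negative values upstream of the gene; red markers are Strong boundaries, blue are Weak, and marker size grows with the authors' strength. All boundaries inside the grey 20 kb band lie upstream of the TSS or, for Efna5, in its bin, and Epha5 at 385 kb and Sema3a at 360 kb lie farthest out.

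Among the ligands, most secreted class 3 semaphorins started far from boundaries. None of the 7 lay within 20 kb, against 21.2% of all coding genes, a share that also stands beside the family counts below. Their median distance was 155 kb, against 60 kb for all coding genes. Sema3a, a repellent read through Nrp1 and A-class plexins, had its nearest boundary 360 kb upstream, a Weak one of strength 0.206 that ranked 7892 of 8058. Counted from any annotated coding transcript start of Sema3a, the distance was 255 kb, to a Strong boundary of 0.806. Sema3e, whose receptor is Plxnd1, lay 255 kb from a Strong boundary of 1.20 beyond its 3′ end. The remaining class 3 genes ranged from Sema3g at 40 kb to Sema3c at 220 kb, with Sema3b at 90 kb and Sema3d and Sema3f at 155 kb. Only 7 genes make up this class, and their distances are not independent. Sema3b and Sema3f share a domain, and Sema3d, Sema3a and Sema3e lie in a row on chromosome 5 in domains of 475, 885 and 630 kb. Of the 7 genes, 4 exceed 100 kb, and the median distance over coding genes of that length was 65 kb.

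Most membrane-bound semaphorins started nearer. Class 4, which includes the plexin B1 ligand Sema4d, had a median of 57.5 kb and ranged from 35 kb (Sema4c and Sema4f) to 90 kb (Sema4a), with 0 of 6 within 20 kb. Sema6a, a transmembrane ligand of A-class plexins that also acts as a receptor, had a Strong boundary of 0.958 at 5 kb upstream of its start on chromosome 18. Its relative Sema6d had a Weak boundary of 0.435 at 35 kb, Sema6b one of 0.414 at 65 kb and Sema6c one of 0.436 at 115 kb. Sema5a began 20 kb from a Weak boundary of 0.389, and Sema5b 140 kb from a Strong one of 1.77. Sema7a, which is held on the membrane by a lipid anchor, lay 85 kb from a Strong boundary of 1.20. Over all 20 semaphorins 2 lay within 20 kb, and the median distance was 80 kb.

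Among the semaphorin receptors, Plxna4 had the strongest boundary of any guidance gene start. Plxna4, a plexin that works with neuropilins in class 3 signalling, is a gene of 444 kb on the minus strand of chromosome 6 (32144268 to 32588192). Its boundary, at 32595001 to 32600000, lay 10 kb upstream of the TSS, had a strength of 2.72 and ranked 41 of 8058. Plxna1 had a Weak boundary of 0.386 at 5 kb, and Plxnd1 a Strong one of 0.522 at 10 kb. Plxna2 had a Weak boundary of 0.260 at 30 kb, and the X-linked Plxna3 a Strong one of 1.5 at 90 kb. Of the B-class plexins, receptors for class 4 semaphorins, none lay within 20 kb, with Plxnb1 at 65 kb, Plxnb3 at 90 kb and Plxnb2 at 185 kb. Plxnc1, the receptor for Sema7a, lay 45 kb from a Strong boundary of 0.965. The median over the 9 plexins was 45 kb.

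Both neuropilin genes had a Strong boundary upstream. That of Nrp2, the co-receptor for Sema3f, lay 10 kb from the TSS on chromosome 1 (62690001 to 62695000) with a strength of 0.947. The one at Nrp1, the co-receptor for Sema3a, lay 35 kb away on chromosome 8 with a strength of 1.05. No coding TSS lay nearer than that of the neuropilin to either boundary.

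Among the 14 Eph receptors the median distance was 35 kb and 3 lay within 20 kb. Epha4, a receptor that binds both A and B ephrins, had a Strong boundary of 0.781 at 5 kb on chromosome 1 (77520001 to 77525000). Epha10, an Eph protein known for lacking kinase activity, had one of 0.707 at 5 kb on chromosome 4. Ephb1, a receptor for B ephrins, had one of 0.684 at 10 kb on chromosome 9. At the other end, Epha5 had the most distant boundary of all 53 genes, 385 kb from its TSS and beyond its 3′ end, with a strength of 0.992. Epha1 and Ephb4 at 25 kb, Epha7 and Ephb3 at 30 kb, and Epha2 and Epha3 at 40 kb fell just outside the limit. Ephb2, Epha8, Epha6 and Ephb6 lay at 55, 65, 150 and 165 kb.

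Among the ephrins, Efna5, a lipid-anchored ligand of EphA receptors, was the gene with a boundary on its promoter. The boundary, on chromosome 17 from 62880001 to 62885000 with a strength of 0.946, was centred 1.18 kb upstream of the TSS and overlapped an exon at the start of the gene, which extends over 277 kb on the minus strand. Efna2 had a Strong boundary of 1.16 at 5 kb on chromosome 10, but 1600002K03Rik starts inside that boundary bin and is thus nearer to it. None of the B ephrins, which are transmembrane proteins, lay within 20 kb, with Efnb2 at 25 kb (0.508), Efnb3 at 110 kb (0.918) and Efnb1 at 175 kb (1.44). In Efnb2 the boundary sat within the gene, in the bin of an alternative coding transcript start. Efna1, Efna3 and Efna4 shared a Weak boundary of 0.271 at 45, 85 and 100 kb.

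The RefSeq promoter of Efna5 is shown because it lies inside the boundary bin, and that of Epha4 because its boundary lies 5 kb farther upstream. Each run gives the 250 bases before the start on the gene's strand, from the GRCm38.p6 reference, with CG pairs in capitals. The Efna5 run covers chr17:62881318-62881567 and the Epha4 run chr1:77515089-77515338, both on the minus strand.
Efna5: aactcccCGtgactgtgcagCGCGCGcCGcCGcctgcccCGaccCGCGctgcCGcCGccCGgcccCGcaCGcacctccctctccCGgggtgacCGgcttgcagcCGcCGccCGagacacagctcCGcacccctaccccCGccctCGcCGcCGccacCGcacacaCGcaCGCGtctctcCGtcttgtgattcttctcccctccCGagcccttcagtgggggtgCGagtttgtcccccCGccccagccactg
Epha4: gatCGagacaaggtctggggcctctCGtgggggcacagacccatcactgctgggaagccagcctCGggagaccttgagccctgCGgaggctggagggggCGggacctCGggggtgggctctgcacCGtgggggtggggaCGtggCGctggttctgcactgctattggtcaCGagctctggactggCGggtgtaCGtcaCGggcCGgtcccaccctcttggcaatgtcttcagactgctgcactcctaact
These 250 bases held 32 CG pairs at Efna5 and 14 at Epha4. A RefSeq promoter, counted over 300 bases (250 before and 50 after the start), was matched for 47 of the 53 genes. Its median was 22 CG pairs, against 14 over 16432 coding genes, and its median GC content was 64.7% against 57.0%. The 8 matched genes with a boundary within 20 kb had a median of 23 CG pairs, and the 39 without one had 20. CG content was therefore above the coding median both with and without a boundary nearby. Of the 47 promoters, 37 started within 100 bases of the TSS used for the boundary distance, while that of Sema3a started 271370 bases away. Plxna1, Plxna4 and Sema6a, each with a boundary within 20 kb, had no matched promoter.

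Where the nearest boundary lay 5 to 20 kb from the TSS of a guidance gene, it lay upstream of that TSS. Of the 11 genes, 10 had the boundary 5 to 20 kb away and outside the TSS bin, and all 10 of these boundaries were upstream of the TSS (100%), against 56.0% of the 3922 coding genes at that distance. Restricted to genes over 100 kb, the count was 6 of 6, against 63.6%. With a limit of 50 kb it was 20 of 26 (76.9%), against 55%, so the upstream share was lower farther out. No coding gene had a TSS nearer to the boundary at 10 of the 11 genes (90.9%), against 74.6%, the exception being Efna2. Of the 11 boundary bins, 9 overlapped no annotated gene (81.8%), against 30.2% of the 3030 boundaries within 20 kb of any coding TSS, and the other two overlapped Efna5 itself and the pair 1600002K03Rik and Cirbp beside Efna2. Over all 53 genes, no coding TSS lay nearer to the nearest boundary at 23 (43.4%), against 29.9%. The bin of the nearest boundary held the TSS of another coding gene at 7 (13.2%), against 13.9%. The side of the boundary was chosen as a measure after the data were seen. Neither the nearness of other coding starts nor the overlap of the bin with genes was among the planned measures. A bin upstream of a gene cannot overlap that gene, so the overlap count is not independent of the side. The 3030 boundaries were not split by side.

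The guidance genes were long, which bears on all counts over gene bodies. Their median length was 36.9 kb against 17.4 kb, and 22 of 53 (41.5%) exceeded 100 kb, against 11.4%. Among these 22 long genes, 7 (31.8%) started no more than 20 kb from a boundary, against 19.8% of coding genes over 100 kb. Counts given below for a length class therefore stand beside coding genes of that class, though length still varies within it. Counts over all 53 members are not matched for length.

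The bodies of long guidance genes held few boundaries. A boundary bin lay wholly inside 6 of the 22 genes over 100 kb (27.3%), against 44.4% of coding genes of that class. A Strong one lay inside 2 (9.09%), Sema3d and Epha6, against 24.9%. Among the 9 members over 250 kb it was 3 (33.3%), against 72.0%, and among the 13 from 100 to 250 kb it was 3 (23.1%), against 32.8%. Per length, members over 100 kb held 1.57 boundaries per Mb against 2.22 for coding genes of the class. In the shorter classes, 1 of 5 members from 30 to 100 kb (Efnb2, 20%, against 14.2%) and 0 of 26 under 30 kb (against 3.08%) held one.

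Epha6 stood apart from the other long genes. It is the longest member, 952 kb on chromosome 16 from 59653483 to 60605531, and held 5 of the 11 boundaries found inside guidance genes. From its TSS toward its 3′ end these had strengths of 0.294, 0.261, 0.205, 0.507 and 0.955, so the last 2 were Strong and the first 3 Weak. The other long genes with an internal boundary had 1 each. In Sema3d it was Strong (1.27) and intronic, 155 kb from the TSS of a 206 kb gene. In Sema6d (0.400), Ephb1 (0.277), Plxnc1 (0.247) and Sema6a (0.256) it was Weak and lay toward the 3′ end. The other 16 long genes, among them Sema3a of 477 kb, Sema5a of 452 kb and Plxna4 of 444 kb, held none wholly inside.

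**Figure D2:**
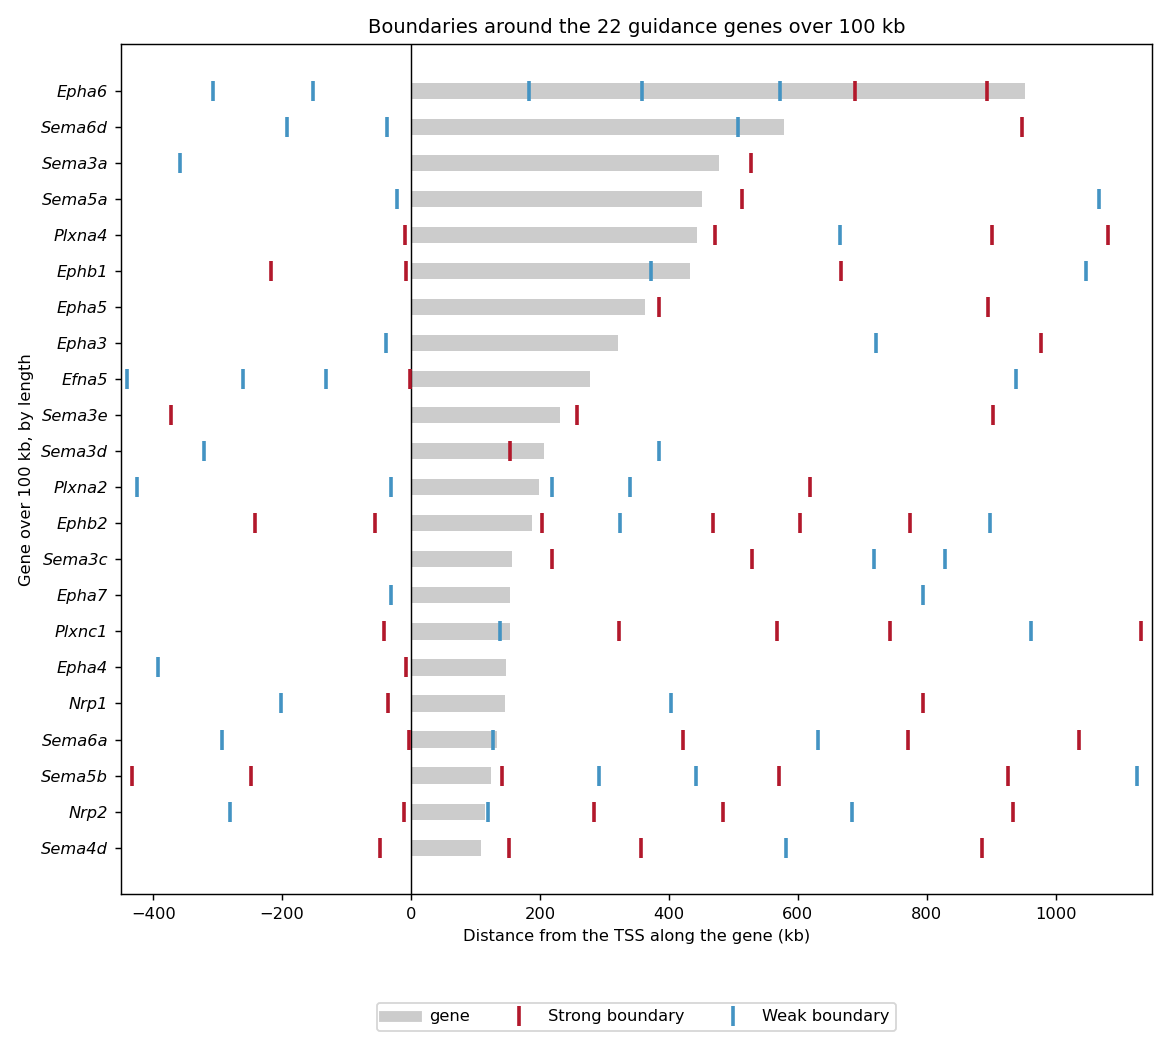
The 22 guidance genes over 100 kb aligned at the TSS (0 kb), with grey bars for the gene and ticks for Strong (red) and Weak (blue) boundaries. Epha6 holds 5 boundaries, 5 other genes hold 1 each, and 16 bars are empty.

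Several long genes nearly filled the domain they start in, taken as the stretch between the centres of the boundaries on either side of the TSS. Of the 22, 6 covered at least 80% of it (27.3%), against 12.6% of coding genes over 100 kb. Plxna4 covered 92.5% of a 480 kb domain between boundaries of 0.515 and 2.72. Nrp2 covered 88.8% of a 130 kb domain between 0.947 and 0.305, and Sema5a 84.4% of a 535 kb domain between 0.389 and 0.951. These 3 genes lay wholly in their domain. Ephb1 (97.9% of 380 kb), Sema6a (97.2% of 130 kb) and Sema6d (93.1% of 545 kb) ran past a Weak boundary near their 3′ end, so only the part before it was counted. With Strong boundaries only, 1 of the 22 (4.55%) covered 80% of its domain, against 4.28%, so the difference from the background rests on Weak boundaries.

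Long guidance genes mostly had no other coding gene starting in their domain. That held for 16 of 22 (72.7%), against 38.9% of coding genes over 100 kb. The other 6 were Sema3c, Sema3e, Sema4d, Sema5b, Nrp1 and Ephb2, with 2 or 3 coding starts each. Of the 16, 6 (37.5%) held a boundary inside the gene, so that their domain ended within the gene. An internal boundary was held by 56.0% of the 966 long coding genes that were alone. Epha6, of 952 kb, was alone in a domain of 335 kb. Between Strong boundaries only, the count of long members with no other coding start was 8 of 22 (36.4%), against 17.4%. Among the 31 members up to 100 kb only Plxna1 was alone (3.23%), against 5.25%. Over all 53, not matched for length, it was 17 (32.1%), against 9.13%. The domains of the long members were also larger, with a median of 478 kb against 310 kb, while over all members it was 300 kb against 275 kb. The largest domain of any member was that of Epha4, 1375 kb, of which the gene covered 10.8%. Domain size and the number of coding starts in it move together, and the part of each was not tested. The share of the domain covered, its 80% limit and the count of other coding starts were chosen as measures after the data were seen.

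**Figure D3:**
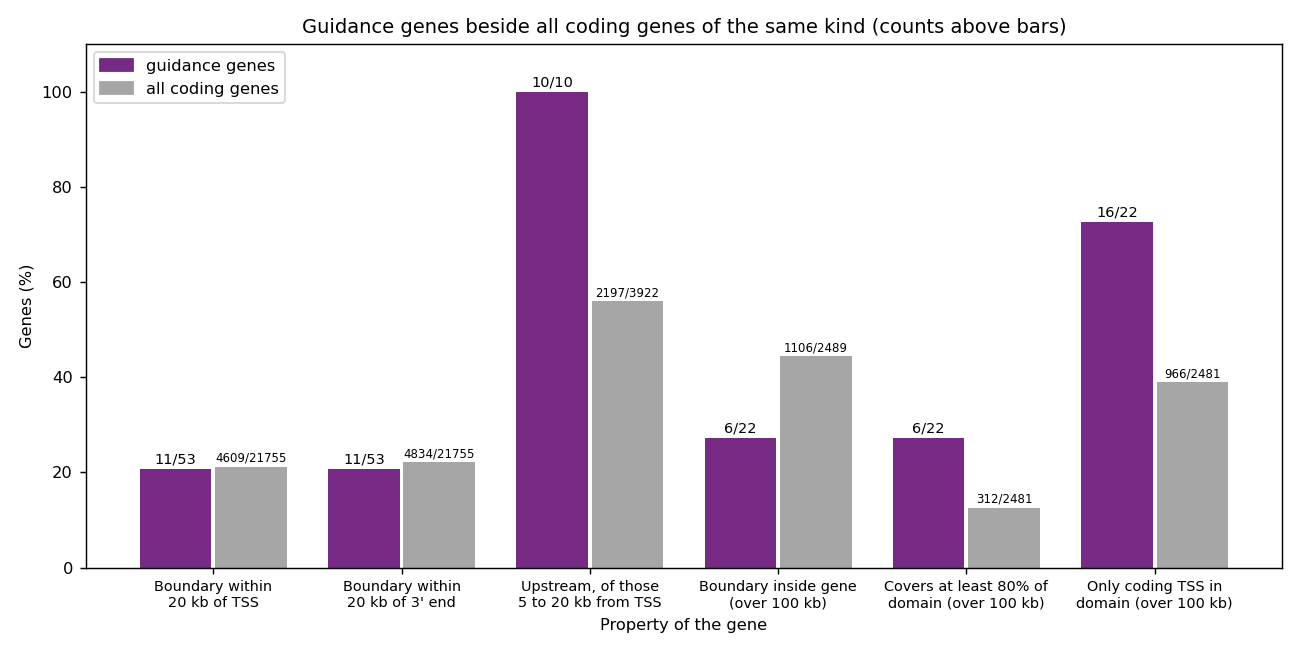
Percentage of guidance genes (purple) and of all coding genes of the same kind (grey) with each of 6 properties, with the counts above the bars. Guidance genes lie near coding genes for a boundary close to the TSS (20.8% against 21.2%) or to the 3′ end (20.8% against 22.2%). They lie apart for an upstream boundary, an internal boundary, domain coverage and being alone in the domain. The difference in coverage rests on Weak boundaries. Side, coverage and being alone were chosen as measures after the data were seen, and no difference was tested.

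Some guidance genes are neighbours on a chromosome, and 5 of the 53 shared a domain with another member. No background share was computed for this count or for the pairs below, and pairs that lie farther apart have more room for a boundary. Efna1, Efna3 and Efna4 lay in 1 domain of 260 kb on chromosome 3, between boundaries starting at 89235001 (0.271) and 89495001 (1.01), together with 15 other coding genes. The distances between their starts were 41.8 and 15.1 kb. Sema3b and Sema3f, both secreted ligands, lay 101 kb apart in 1 domain of 350 kb on chromosome 9, between boundaries starting at 107515001 (2.23) and 107865001 (0.754), also with 15 other coding genes.

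The class 3 run on chromosome 5 was divided. Between the starts of Sema3d and Sema3a, 742 kb apart with no coding TSS between them, lay the Strong boundary within Sema3d (1.27) and a Weak one (0.206). Between Sema3a and Sema3e, 900 kb apart, lay a Strong boundary of 0.806, 50 kb past the end of Sema3a. The receptor genes Ephb2 and Epha8 on chromosome 4, 121 kb apart, were parted by 1 Strong boundary of 0.903 in C1qc, a complement gene. On the X chromosome, 3 boundaries, 2 of them Strong, lay between Plxnb3 and Plxna3, 572 kb apart. In all, 11 neighbouring pairs had starts within 3.5 Mb, and 3 of them had no boundary between.

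**Figure D4:**
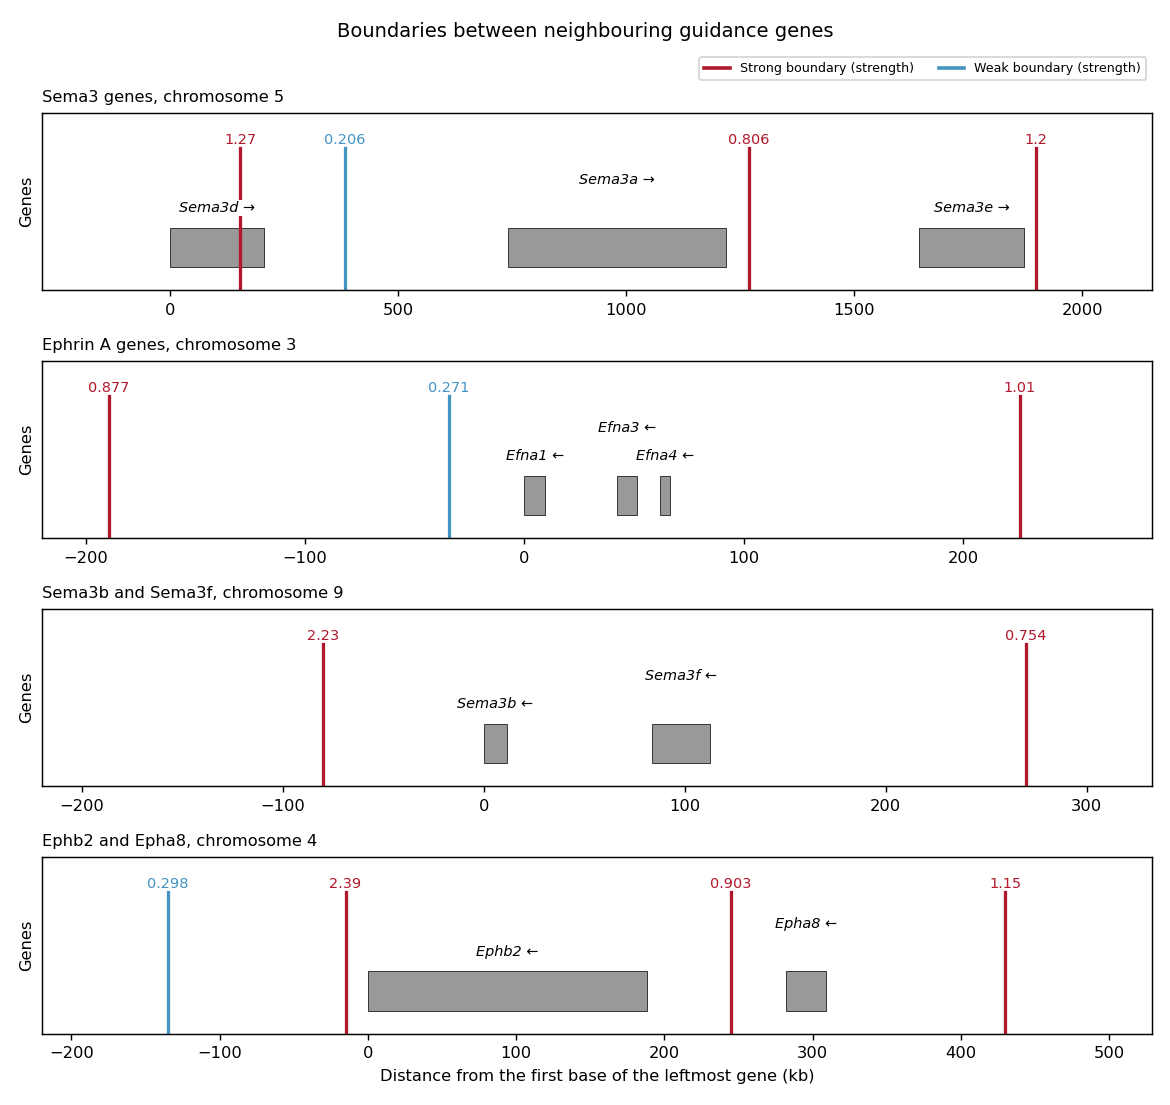
Runs of guidance genes (grey bars, arrows give the strand) and the boundaries around them (red Strong, blue Weak, with the authors' strength), by distance in kb from the first base of the leftmost gene. The ephrin A genes and the pair Sema3b and Sema3f have no boundary between them, whereas the class 3 run on chromosome 5 and the pair Ephb2 and Epha8 are divided.

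Boundaries at the 3′ ends of the genes were about as frequent as in the background. A boundary lay within 20 kb of the 3′ end at 11 of 53 (20.8%), against 22.2%, and the median distance was 55 kb in both. Nrp2, Efna2 and Sema6a had a boundary within 20 kb of both ends. In the short Efna2 gene this was 1 and the same boundary, while Nrp2 (0.947 and 0.305) and Sema6a (0.958 and 0.256) had a Strong one upstream and a Weak one at the 3′ end. The strongest at a 3′ end belonged to Ephb2 (2.39), 15 kb away. Sema4d had 1 of 1.73 at 45 kb. Ephb4 ended inside its boundary bin (0.773), which also overlaps an exon of Zan.

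CTCF, a DNA-binding protein that halts loop extrusion and marks many boundaries, was searched for by exact matches to its core consensus of 14 bases on either strand. At boundaries within 20 kb of a member TSS, 2 of 11 (18.2%) had a match within 20 kb, against 28.3% of the 3030 boundaries near any coding TSS. These belonged to Efna2 and Sema6a, the latter in an intron of Sema6a and not printed. Over the 70 distinct boundaries nearest to an end of a member or inside one, 10 had a match (14.3%), against 21.9% of all 8058 boundaries. The boundary of Plxna4, the strongest, had none. With 1 mismatch allowed the counts were 8 of 11 (72.7%) against 84.5%. A match is a run of letters and not a measured site, the reference genome is not strain 129P2/OlaHsd, and differences between them were not tested.

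The Efna2 match is shown because it lies between the boundary and the gene start, upstream of the TSS and in no annotated gene. The other two accompany the strong boundaries past the 3′ ends of Ephb2 (2.39) and Sema4d (1.73), and also lie in no annotated gene. Capitals mark the 14 bases of the core, with 8 bases of GRCm38 on either side, written 5′ to 3′ on the strand of the match.
Efna2: actaattgCCACCAGGTGGCAGccacatac
Ephb2: gcaaatcaCCACTAGATGGCAGaaggtgta
Sema4d: gtactacaCCACCAGAGGGCAGcctcgata
The Efna2 core is chr10:80175687-80175700 on the plus strand, in the 5 kb bin next to the boundary bin. Read 5′ to 3′, it points away from the boundary. The Ephb2 core is chr4:136621502-136621515 on the minus strand, 10 kb from its boundary when counted from bin to bin. The Sema4d core is chr13:51639169-51639182 on the minus strand, in the bin next to its boundary bin. The Ephb2 and Sema4d cores also point away from their boundary. None of the 47 RefSeq promoters of members held the core, and 0.341% of the 16432 coding promoters did.

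Partner genes that act around or downstream of these receptors began within 20 kb of a boundary about as often as coding genes at large. Of 49 matched partner genes, 9 (18.4%) began within 20 kb of a boundary, against 21.2% of coding genes. The boundary was Strong at 3 of the 49 (6.12%), against 13.7%. Semaphorin partners accounted for 7 of 31 (22.6%) and ephrin partners for 2 of 18 (11.1%). The strongest were at Fes (1.16, in the TSS bin), a tyrosine kinase of plexin signalling, Farp2 (0.715, 5 kb), an exchange factor bound by A-class plexins, and Cfl1 (0.579, in the TSS bin), the actin-severing cofilin.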

How the data were processed

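In situ Hi-C of 2 biological replicates was pooled by the authors into 1 contact map on GRCm38, per the submitters' processing notes and the series text, and boundaries were called on it. No source used here names the mapper, the boundary caller, its window or its filters. In the deposited file each row gives a 5 kb interval, a class and the authors' strength score, used only to rank or divide boundaries. From the values, boundaries lay at least 45 kb apart, so no TSS could have 2 within 20 kb. Distances were computed between 5 kb bins on chromosomes 1 to 19 and X. Gene positions came from GENCODE mouse release 21, promoters from RefSeq (GRCm38.p6), both of the list's build.

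Counts over members stand beside all coding genes. A domain ran between centres of adjacent boundaries, and 219 coding genes without a boundary on both sides were left out of domain counts. Of 50 listed pathway partners 49 matched a gene name. The members and lists were chosen with earlier results of these data known. Genes with a Strong or TSS-bin boundary within 20 kb, several internal boundaries, a shared domain or the 3 largest distances were named with values, and the others by ranges or single values. The code for the distance and side of the nearest boundary was tested on simulated data with planted boundaries. The code for boundaries inside genes, for domains and for overlap with genes was not tested in this way. Alternatives were other windows, Strong or strongest boundaries, and other transcript starts. Python 3.11.15, pandas 2.3.3, numpy 2.4.6 and matplotlib 3.10.9 were used.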

Additional observations from a re-analysis of the deposited data

How the results depend on the processing

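Of 37 alternatives, 10 were chosen after seeing the data. Counts and medians of distance or length have no sign, so none could be reversed. Of the 37, 16 left a count within 1.5 times and 21 moved a count further or shifted a median. The share of members with a boundary near the TSS was below the background at 20 kb (20.8% against 21.2%). It was above it at 10 kb, at 50 kb and from any coding transcript start (24.5% against 23.4%). A 50 kb window gave 27 members, from 11 (50.9%, against 44.9% of coding genes). At the 3′ end it gave 26, from 11 (49.1%, against 46.8%), and 20 had an upstream boundary, from 10 (76.9%, against 55%). It also gave 19 with a Strong boundary (from 9) and 23 partners (from 9). A 10 kb window gave 10 members at the TSS (18.9%, against 12.8%) and 4 at the 3′ end. The top 25% of strengths left 5 members at the TSS (9.43%, against 7.04%), 4 at the 3′ end and 1 partner. Counts here without a share have it above or had none computed, and those with none are no result about these genes. Strong boundaries alone left 7 at the 3′ end, 3 with a boundary inside the gene (from 7; 2 from 6 over 100 kb), 3 partners, 1 gene covering its domain (from 6) and 8 alone in it (from 16). They put the median distance at 90 kb (from 50) and the median domain at 425 kb (from 300 kb). The TSS bin count was 1, but 6 with adjacent bins and 2 with any coding transcript start. Of 21755 coding genes, 687 had their nearest boundary in the TSS bin and 1171 in an adjacent bin. CTCF matches went from 2 to 1 within 10 kb (9.09%, against 19.4%) and to 8 with a mismatch.

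The pooled list allows no replicate to be left out, so none was. No paired analysis was possible because there was 1 group. Depth is unknown, so a boundary absent from the list was only not called. The undetermined bases of the reference in a member's domain were 57952 at Ephb4 and 0 elsewhere.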

Other observations

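For 7 guidance genes the nearest boundary bin held the start of another coding gene, at 6 distinct boundaries, a share near that of all coding genes (13.2% against 13.9%). That of Sema4a (0.982) held Lamtor2 and Ubqln4, that of Efnb3 (0.918) Eif4a1, which encodes a translation initiation helicase, that of Plxnb1 (0.817) Fbxw21, and that of Sema6b (0.414) Hdgfl2 and Ubxn6. Ephb2 and Epha8 shared the one at C1qc (0.903), and Efna2 had that of 1600002K03Rik (1.16).

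Chemosensory receptor genes stood at or near the boundaries of 2 Eph receptor genes on chromosome 6. The nearest boundary of Epha1 (1.48, 25 kb upstream) lay 5 kb from the start of Tas2r143, a bitter taste receptor gene. That of Ephb6 (0.439, 165 kb away) overlapped an exon of Olfr459, an olfactory receptor gene. Both pairs were picked after their values were seen. No share of boundaries beside such receptor genes was computed over all coding genes, so the pairs are single cases and no result about these genes.

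Among the 22 guidance genes over 100 kb, the 3′ end was nearer to a boundary than the TSS at 12 (54.5%), against 54.0% of coding genes of that length, so the gene ends did not differ in this respect from the background share.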
